A study of Mus musculus with 12 samples.

Results

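The comparison set the libraries whose cell barcodes end in 10, 11 or 12 against those whose barcodes end in 1, 2 or 3. The libraries were grouped by that number, not by stage label, and they make up 6 of the 12 samples and 9719 of the 20213 cells with more than 500 and fewer than 5000 detected genes. Libraries 10, 11 and 12 are labelled peak 3, resolving 3 and resolved 3 and hold 5392 of these cells. Libraries 1, 2 and 3 are labelled rest 1, peak 1 and resolving 1 and hold 4327. The runs of 3 numbers were recognised from the likeness of the libraries' fibroblast sums, and these runs were selected on a low share of cycling cells. Fibroblast expression and the proliferating share are therefore described without a test and support nothing.

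All mice were wild type C57BL/6 males of 8 to 10 weeks, and each library pooled joint cells of 3 animals. Arthritis was induced by serum transfer (STIA), an intravenous injection of K/BxN serum, and hind limb joints were taken at rest on day 0 without serum, at the peak on days 7 to 9, while resolving on day 15 and when resolved on day 22. Every library was sorted for cells without CD45, the pan-leukocyte surface protein encoded by Ptprc, and sequenced from the 3' end. Ptprc had 1, 0 and 1 UMIs in rest 1, peak 1 and resolving 1 and 5, 0 and 5 UMIs in peak 3, resolving 3 and resolved 3, so Ptprc itself was close to absent. The 15 immune cell markers, led by S100a8, summed over all cells to 30.3, 19.1 and 460 CPM (UMI counts scaled to one common total) against 178, 32.0 and 926 CPM, and 4 and 13 cells of the runs were classed as immune.

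The joint stroma is built of fibroblasts that line and support the synovium, tenocytes of tendon and ligament, osteoblasts, chondrocytes and vessel cells. Transferred serum gives a self-limiting arthritis in which these cells make chemokines and remodel matrix. Immediate early genes are transcribed within minutes of a stimulus, including the handling of tissue, and heat shock genes encode chaperones made when proteins misfold.

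The kept cells of rest 1, peak 1 and resolving 1 numbered 1746, 1350 and 1231 and carried 11444702, 8286317 and 7774282 UMIs. Those of peak 3, resolving 3 and resolved 3 numbered 2438, 1426 and 1528 and carried 14553711, 8538348 and 9082445 UMIs. The median deposited cell had 5358 UMIs in every library of the series. Median mitochondrial shares were 2.13%, 2.32% and 2.11% in suffixes 1 to 3 and 2.18%, 2.17% and 2.58% in suffixes 10 to 12. With the suffix removed, no 2 of the 12 libraries shared a cell barcode sequence. Whether barcodes found in several libraries were taken out before deposit is not described, so this count says nothing on cells shared between libraries. Each run holds a stage label that the other lacks, rest in suffixes 1 to 3 and resolved in suffixes 10 to 12. All libraries of suffixes 1 to 3 carry replicate number 1 and all of suffixes 10 to 12 number 3. Run, replicate number and any batch that coincides with a run cannot be told apart.

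Proliferating shares, which chose the runs, lay by run and not by stage label, and are given as a description. They were 0.515%, 0.0741% and 0.487% of cells in rest 1, peak 1 and resolving 1 and 0.0820%, 0.0701% and 0.131% in peak 3, resolving 3 and resolved 3. In suffixes 4 to 6, resolved 1, rest 2 and peak 2 held 15.2%, 10.0% and 14.1%, and in suffixes 7 to 9, resolving 2, resolved 2 and rest 3 held 2.85%, 4.75% and 2.39%. Peak 2 stood far above peak 1 and peak 3. The study, by these labels, reports Ccl2, Cxcl1, Mmp3 and other genes raised at peak against rest in Hk2-positive fibroblasts. It reports most of them as not significantly different from rest when resolved. Whether each stage label stands for the stage of its library was not tested and cannot be told from these files. Labels therefore serve here as names of libraries, also where libraries labelled peak and resolving are taken alone.

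Chondrocytes, the matrix-making cells of cartilage, made up 5.38%, 4.15% and 5.77% of rest 1, peak 1 and resolving 1. In peak 3, resolving 3 and resolved 3 they made up 0.246%, 0% and 0.393%, or 6, 0 and 6 cells. The groups did not overlap, and every library of suffixes 1 to 3 had at least 56 such cells. The 0 of 1426 cells in resolving 3 allows a share of up to 0.210%. The difference in means was -4.89 percentage points, at 5.10% ± 0.846 in suffixes 1 to 3 and 0.213% ± 0.198 in suffixes 10 to 12 (SD, n = 3 libraries a run; exact permutation p = 0.1, the smallest that 3 against 3 can give, and 0.333 adjusted over the 10 classes tested). Mean chondrocyte shares in suffixes 4 to 6 and 7 to 9 were 0.956% and 1.18%, so the high values were those of suffixes 1 to 3.

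The cartilage genes counted over all cells showed the same split. Col2a1, the main fibrillar collagen of cartilage, had 4452, 3258 and 3683 CPM in rest 1, peak 1 and resolving 1 and 173, 11.6 and 263 CPM in the libraries of suffixes 10 to 12. Acan, the large cartilage proteoglycan aggrecan, had 408, 312 and 438 CPM against 32.7, 19.4 and 41.9 CPM. Both genes were lowest in resolving 3. The 7 chondrocyte markers present in the files out of 8 listed summed to 9130, 6674 and 7986 CPM and to 437, 133 and 592 CPM, with Col2a1 the most abundant and no marker at 0. Gene changes within chondrocytes could not be tested, since no library of suffixes 10 to 12 had 10 of these cells. Fewer cells of a type and fewer cells of it freed from the tissue cannot be told apart.

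Osteoblasts, the bone-forming cells, were 16.8%, 10.4% and 11.9% of suffixes 1 to 3 and 7.05%, 7.50% and 4.78% of suffixes 10 to 12. No library of suffixes 10 to 12 reached the lowest of suffixes 1 to 3. The difference in means was -6.58 points, at 13.0% ± 3.39 and 6.45% ± 1.46 (SD, n = 3; exact permutation p = 0.1, adjusted 0.333). Among libraries labelled peak and resolving alone the difference was -3.84 points. Bglap, which encodes the bone matrix protein osteocalcin, had 1760, 950 and 1614 CPM over all cells in suffixes 1 to 3 and 884, 641 and 518 CPM in suffixes 10 to 12. Its groups did not overlap either.

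Vascular endothelial cells, which line blood vessels, went the other way. They were 8.36%, 9.19% and 9.50% of suffixes 1 to 3 and 11.9%, 13.0% and 20.2% of suffixes 10 to 12. Resolved 3 stood highest and the groups did not overlap, with means of 9.02% ± 0.589 and 15.1% ± 4.50 (SD, n = 3; exact permutation p = 0.1, adjusted 0.333). The difference of 6.05 points was 3.47 without resolved 3. The cluster led by the capillary genes Gpihbp1 and Cd36 held 94, 87 and 70 cells in suffixes 1 to 3 and 223, 152 and 264 in suffixes 10 to 12. The cluster led by Plvap and Selp, genes of fenestrated and venous endothelium, held 52, 37 and 47 against 68, 34 and 45 cells. The capillary-led cluster thus held most of the added cells.

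The remaining classes overlapped between the runs. Fibroblasts, the largest class, made up 36.0%, 54.1% and 47.8% of suffixes 1 to 3 and 45.9%, 44.5% and 45.1% of suffixes 10 to 12 (exact permutation p = 0.9). Tenocytes were 19.2%, 13.0% and 10.6% against 18.6%, 22.7% and 15.0% (exact permutation p = 0.3). Perivascular cells, the mural cells of vessels, were 2.86%, 2.89% and 2.03% against 3.12%, 1.75% and 1.83% (exact permutation p = 0.6). In all, 3 of the 10 classes tested did not overlap, against 7 without rest 1 and 6 without resolving 3. Of the intervals for a share in 1 library (95%, Wilson), the widest spanned 5.57 points. They cover counting error only.

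**Figure D1:**
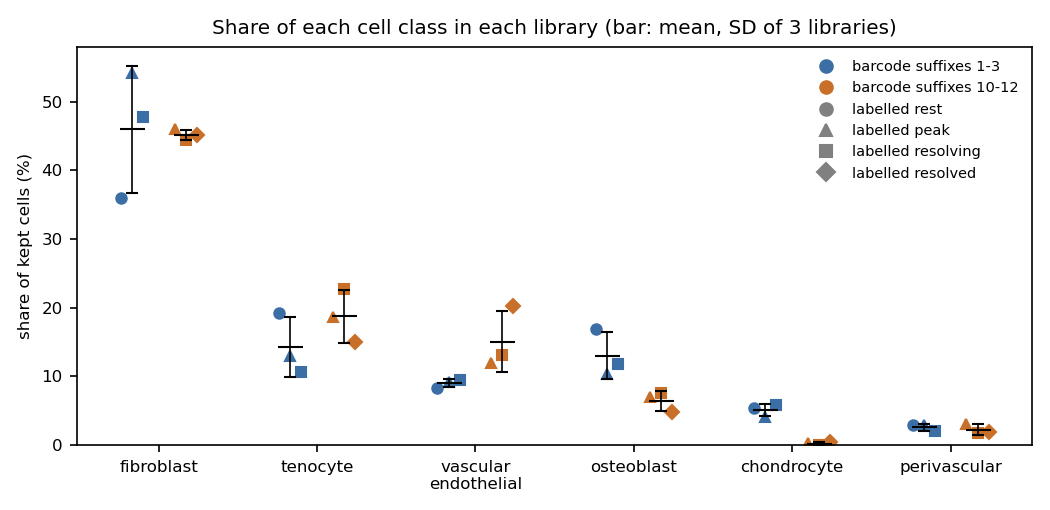
Share of kept cells (%, vertical axis) in 6 of the named classes, 1 point a library, blue for suffixes 1 to 3 and orange for 10 to 12, with the marker shape giving the stage label and the bars the mean and SD of 3 libraries. Chondrocytes lie at 4.15% to 5.77% in suffixes 1 to 3 and at 0% to 0.393% in suffixes 10 to 12.

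In fibroblasts, 757 of 10601 genes had all 3 libraries of one run above all 3 of the other with a log2 fold change beyond 0.5 in size (7.14% of genes, 3.98% higher and 3.16% lower in suffixes 10 to 12). Scaled by total UMIs alone, 361 genes were higher and 444 lower. Fibroblast genes chose the runs, so nothing is read from the count. The count was 1308 without rest 1, 1238 without peak 3 and 1144 without resolving 3, since fewer libraries separate more easily. Among the 422 higher genes, Tnfaip6, a secreted hyaluronan-binding protein induced by inflammatory cytokines, had 1010, 532 and 622 CPM in rest 1, peak 1 and resolving 1 and 1763, 2069 and 2403 CPM in peak 3, resolving 3 and resolved 3. Its level was lowest in peak 1 and highest in resolved 3, with a log2 fold change of 1.52. Rcan1, an inhibitor of calcineurin, had 249, 182 and 170 CPM against 443, 580 and 517 CPM. Rnd1, a small GTPase that loosens cell adhesion, had 49.5, 21.5 and 24.9 CPM against 94.6, 88.0 and 107 CPM. For both, rest 1 came nearest to the libraries of suffixes 10 to 12 without reaching them. Of 19 immediate early genes in fibroblasts, 9 were counted higher and 0 lower, with a median of 0.55.

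Chemokines of neutrophils and monocytes were among the higher fibroblast genes. Cxcl1, a neutrophil attractant, had 2158, 1483 and 1156 CPM in suffixes 1 to 3 and 3167, 3131 and 4614 CPM in suffixes 10 to 12 (log2 fold change 1.18). Ccl2, a monocyte attractant, had 1288, 1001 and 753 CPM against 1937, 1311 and 2456 CPM (0.90). Resolving 3 lay only just above rest 1 in Ccl2 and far above it in Cxcl1. Of 9 CXC chemokines tested, Cxcl1 and Cxcl2 were counted higher, and of 7 CC chemokines, Ccl9, Ccl7 and Ccl2 were counted higher and Ccl8 and a Ccl19 gene lower. Their median log2 fold changes were 0.24 and 0.03, against -0.01 over all genes. Of all fibroblast genes, 3.98% were counted higher and 3.16% lower. Mmp3, stromelysin, a protease of many matrix proteins, had 54.9, 67.6 and 61.4 CPM against 72.4, 250 and 136 CPM, with resolving 3 standing apart. Hk2, the hexokinase that commits glucose to glycolysis, had 201, 167 and 144 CPM against 342, 281 and 381 CPM (0.96). Of 24 hypoxia and glycolysis genes tested, 5 were counted higher and 0 lower, but their median was 0.07.

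Genes for fibrillar collagens and matrix fibres, led by Sparc, summed in fibroblasts to 26313, 27581 and 28056 CPM in suffixes 1 to 3. In suffixes 10 to 12 they summed to 20007, 25162 and 22936 CPM. The groups did not overlap when scaled by total UMIs alone, as sums over a list are. Single genes are scaled otherwise. Tnc, the injury-associated matrix protein tenascin C, had 15.1, 6.95 and 8.65 CPM in suffixes 1 to 3 and 27.5, 53.2 and 49.0 CPM in suffixes 10 to 12 (log2 fold change 2.05). Sparc, a collagen-binding glycoprotein, had 9228, 10527 and 11302 CPM against 7097, 7063 and 7259 CPM (-0.54). The main fibrillar collagens Col1a1 and Col3a1 differed by -0.20 and -0.37 and were not counted. Postn, periostin, had 132, 231 and 264 CPM against 136, 139 and 108 CPM, and Timp1, a metalloproteinase inhibitor, 205, 212 and 315 CPM against 277, 346 and 319 CPM. Both overlapped between the runs. Of the 15 genes of the list that were tested, 3 were counted higher and 2 lower (3.98% and 3.16% of all genes were), with a median of -0.33.

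Among the 335 lower fibroblast genes were chaperones, a Wnt antagonist and clock genes. Dnajb1, the co-chaperone of HSP70, had 1752, 1687 and 1206 CPM in suffixes 1 to 3 and 763, 806 and 660 CPM in suffixes 10 to 12 (log2 fold change -1.07). Hspa1a, the inducible HSP70 itself, had 5284, 6665 and 4812 CPM against 4075, 3078 and 2347 CPM (-0.83). Every library of suffixes 10 to 12 was below every library of suffixes 1 to 3 for both chaperones, and 7 of 12 heat shock genes were counted lower and 0 higher, with a median of -0.59. Dkk2, a secreted Wnt antagonist, had 104, 98.7 and 106 CPM against 43.7, 52.3 and 49.2 CPM (-1.10). Hmox1, which degrades haem, had 185, 310 and 212 CPM against 115, 123 and 93.7 CPM. Per2, a repressor in the circadian clock, had 12.4, 11.8 and 15.9 CPM against 8.28, 6.47 and 7.68 CPM. Of 18 clock genes tested, Npas2, Arntl and Cry2 were counted higher and Dbp, Per2 and Ciart lower. Of 17 interferon-induced genes, 1 was counted higher and 4 lower, with a median of -0.60. Over all fibroblast genes, 3.98% were counted higher and 3.16% lower.

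RNA of other cell types also differed in the fibroblast sums. The haemoglobin genes summed to 293, 182 and 195 CPM in suffixes 1 to 3 and to 358, 2796 and 592 CPM in suffixes 10 to 12, with resolving 3 far above the others. The chondrocyte markers summed to 185, 92.7 and 108 CPM against 73.0, 65.0 and 60.8 CPM, the most abundant being Sox9. Col2a1 in fibroblasts had 59.0, 29.4 and 25.4 CPM against 3.55, 0.24 and 3.16 CPM. Skeletal muscle fibre genes summed to 29.1, 39.1 and 31.7 CPM against 79.9, 50.6 and 97.9 CPM. Of 7 capillary and arterial endothelial genes tested, Gpihbp1, Efnb2, Cd36 and Fabp4 were counted higher and 0 lower, with a median of 0.97. Of all genes, 3.98% were counted higher and 3.16% lower. The vascular endothelial markers summed to 10.2, 14.8 and 16.3 CPM against 11.8, 13.7 and 19.4 CPM, with overlapping groups. The 5 markers of lining fibroblasts, led by Prg4, summed to 40835 CPM in resolving 3 and to between 11357 and 27280 CPM in the other libraries of both runs. Fibroblast clusters also differed in size between libraries. The cluster led by Inmt, C4b and Dkk2 held 166, 305 and 203 of the 628, 731 and 588 fibroblasts in suffixes 1 to 3 and 266, 119 and 116 of the 1120, 634 and 689 in suffixes 10 to 12. The cluster led by Ifi205, Ccl7 and Ccl2, with Tnfaip6 and Cxcl1 among its leading genes, held 71, 83 and 37 against 188, 60 and 163. The part of these RNAs, clusters and lining cells in the fibroblast differences was not tested.

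Of the immediate early genes, 9 of 19 rose in tenocytes and 0 fell (edgeR, adjusted p below 0.05; 2.56% of all genes tested passed), with a median log2 fold change of 0.76. In osteoblasts 8 of 18 rose and 0 fell (0.569% of all genes passed), with a median of 0.72. With coarser clusters, 8 genes in all passed in tenocytes, with 0 from this list. In vascular endothelial cells 0 of 19 passed the test, 8 had every library of suffixes 10 to 12 above those of suffixes 1 to 3 (8.06% of all genes tested did), Myc had every library below (5.21% did), and the median was 0.27. The medians over all genes were -0.01 in each of these classes. Summed over the 20 listed genes, with Fos the most abundant, tenocytes had 26803, 17789 and 22017 CPM in suffixes 1 to 3 and 26398, 33990 and 26887 CPM in suffixes 10 to 12, with overlapping groups. Ier3, an early response gene that limits cell death, had 599, 580 and 540 CPM in osteoblasts of suffixes 1 to 3 and 1057, 1176 and 1130 CPM in those of suffixes 10 to 12 (0.98 ± 0.12 SE, adjusted p = 0.00433). In tenocytes it had 704, 593 and 614 CPM against 1197, 1213 and 1421 CPM (0.97 ± 0.12, adjusted p = 0.00103). The libraries within each run lay close together in both classes, and the gap between the runs was wide. Zfp36, which encodes an RNA-binding protein that destabilises cytokine mRNAs, rose in osteoblasts (1.19 ± 0.19, adjusted p = 0.0101). In endothelial cells it had 1018, 1067 and 929 CPM against 1415, 1347 and 1712 CPM and missed the threshold (0.54 ± 0.11, adjusted p = 0.0749).

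Of 12 heat shock genes tested, 3 fell in endothelial cells, where 0.273% of all genes passed, with a median of -0.31. In tenocytes, where 2.56% passed, Dnajb1 and Hspd1 fell, with a median of -0.35. In osteoblasts 0 of 12 passed in either direction and the median was -0.02. Hspa1a, the most abundant of the list, had 8472, 8545 and 8572 CPM in osteoblasts of suffixes 1 to 3 and 9224, 8782 and 6373 CPM in those of suffixes 10 to 12, with overlapping groups. Summed over all cells, the list had 21882, 21853 and 21385 CPM in suffixes 1 to 3 and 18995, 18819 and 16653 CPM in suffixes 10 to 12. The direct test between endothelial cells and osteoblasts did not pass for Hsph1 (adjusted p = 0.189) or Hspd1 (adjusted p = 0.154), so a difference between these classes was not shown. Other pairs of classes were not compared, and the list's sums in endothelial cells overlapped, at 41042, 41548 and 32711 CPM against 32301, 33601 and 35479 CPM.

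**Figure D2:**
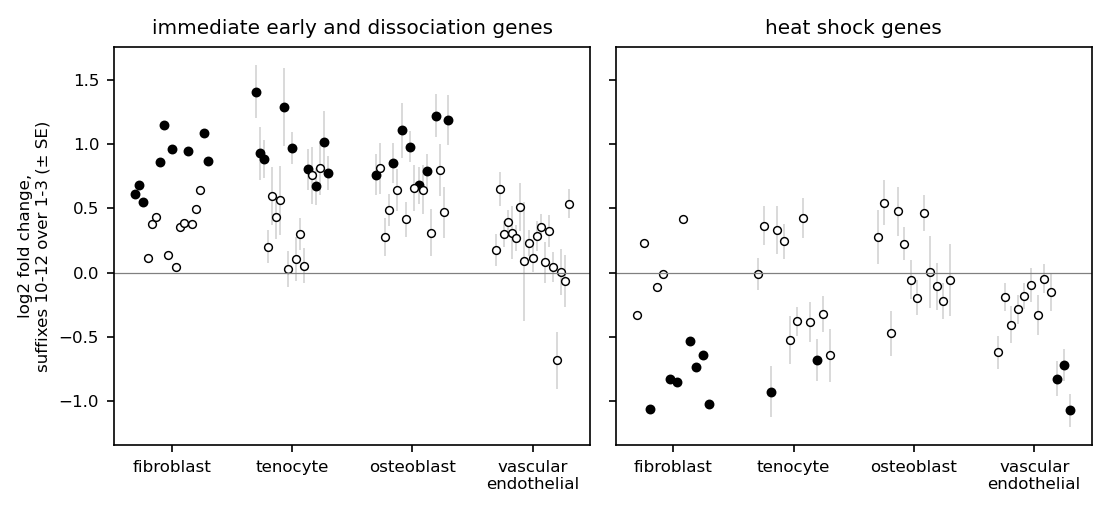
Log2 fold change of suffixes 10 to 12 over 1 to 3 (vertical axis, bars ± SE in the tested classes) for each tested gene of the immediate early list (left) and the heat shock list (right) in 4 cell classes. Filled points passed the test or, in fibroblasts, were counted as apart; in osteoblasts 8 immediate early genes are filled above 0 and no heat shock gene is filled.

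In vascular endothelial cells, 18 of 6586 genes passed the test between the runs (0.273% of genes), 9 higher and 9 lower in suffixes 10 to 12. Hsph1, the HSP110 chaperone, had 1068, 861 and 794 CPM in rest 1, peak 1 and resolving 1 and 413, 462 and 450 CPM in peak 3, resolving 3 and resolved 3. Each library of suffixes 10 to 12 had clearly less than the lowest of suffixes 1 to 3 (log2 fold change -1.08 ± 0.13 SE, adjusted p = 0.00354, lower in 3 of 3 libraries). Hspd1, the mitochondrial chaperonin HSP60, had 430, 429 and 397 CPM against 201, 273 and 254 CPM (-0.83, adjusted p = 0.0269). Fbln5, which helps elastic fibres assemble, had 139, 156 and 164 CPM against 82.3, 77.9 and 92.7 CPM (-0.89 ± 0.15, adjusted p = 0.0287). Hs3st1, an enzyme that sulfates heparan sulfate, had 63.5, 76.2 and 83.9 CPM against 29.4, 27.8 and 38.0 CPM (-1.25, adjusted p = 0.0287). These groups did not overlap.

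The 9 higher endothelial genes included Fmod, Prelp, Dcn and Thbs4. Fmod, the collagen-binding proteoglycan fibromodulin, had 23.4, 22.9 and 10.2 CPM in suffixes 1 to 3 and 126, 149 and 159 CPM in suffixes 10 to 12 (log2 fold change 2.87 ± 0.24 SE, adjusted p = 1.01e-04). Dcn, the proteoglycan decorin, had 819, 516 and 1032 CPM against 2520, 1806 and 1516 CPM (1.27 ± 0.23, adjusted p = 0.038). Thbs4, a thrombospondin of tendon, had 3.34, 9.53 and 4.09 CPM against 56.2, 45.9 and 31.2 CPM (2.93 ± 0.43, adjusted p = 0.0135), from 2, 5 and 2 UMIs against 67, 33 and 32. Of 8 small leucine-rich proteoglycans tested, Fmod, Prelp and Dcn rose and 0 fell (0.273% of all genes tested passed), with a median of 1.27. The 6 tenocyte markers summed to 29.1, 37.3 and 17.1 CPM in these endothelial cells and to 202, 300 and 195 CPM, with Fmod the most abundant and none at 0, and the 7 fibroblast markers to 1776, 1528 and 3980 CPM against 5907, 3728 and 3365 CPM. In tenocytes themselves Fmod lay between 4224 and 8306 CPM and Dcn between 29460 and 36349 CPM, with adjusted p = 0.769 and 0.768 between the runs. With the 6% of cells that scored highest for doublets removed from each library, Fmod had a log2 fold change of 1.94 and an adjusted p of 0.208, and Dcn 0.42 and 0.705. Col2a1 fell (-2.89, adjusted p = 0.0135), and the chondrocyte markers it leads summed to 118, 76.6 and 66.1 CPM against 24.6, 7.15 and 27.9 CPM. Muscle fibre genes, led by Acta1, summed to 283, 112 and 66.1 CPM against 300, 284 and 434 CPM, and 0 of 6 tested passed. The part of RNA from these other cell types in the endothelial results was otherwise not tested. Cytl1 fell in endothelial cells, from 184, 135 and 235 CPM to 77.2, 40.4 and 78.0 CPM (-1.50, adjusted p = 0.0269), while over all cells it had 155, 94.9 and 252 CPM against 437, 286 and 420 CPM.

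Other endothelial genes did not pass. Cd36, a fatty acid receptor of capillaries, had 1422, 1370 and 1155 CPM in suffixes 1 to 3 and 1678, 1767 and 1802 CPM in suffixes 10 to 12 (adjusted p = 0.242). Plvap, the diaphragm protein of fenestrae, had 649, 680 and 1089 CPM against 500, 392 and 264 CPM (adjusted p = 0.0749). Neither gene's groups overlapped. Each is a leading gene of 1 of the endothelial clusters whose sizes are given with the shares. A fit of the capillary-led cluster alone, chosen after seeing the data, called 31 of 5182 genes. The part of the cluster mix in the levels of Cd36 and Plvap was not otherwise tested. Cxcl1 had 580, 612 and 717 CPM against 625, 370 and 523 CPM, with overlapping groups (adjusted p = 0.576). Of 18 interferon-induced genes 0 passed, and 7 had every library of suffixes 10 to 12 below those of suffixes 1 to 3 (5.21% of all genes tested did), with a median of -0.43. The count of 18 genes depended on single libraries and was 4 without rest 1, 5 without peak 1, 4 without resolving 1, 8 without peak 3 and 5 without resolving 3. With the stage label as a further term over 12 libraries, edgeR called 0 genes, with 415 at an unadjusted p under 0.05, and DESeq2 without that term called 32.

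Osteoblasts had 43 genes past the test among 7553 (0.569% of genes), 37 higher and 6 lower in suffixes 10 to 12. Scaled by total UMIs alone, 20 were higher and 5 lower. Bmp2, a growth factor that drives bone formation, had 118, 64.4 and 78.9 CPM in rest 1, peak 1 and resolving 1 and 236, 227 and 236 CPM in peak 3, resolving 3 and resolved 3. Its 3 values in suffixes 10 to 12 were nearly equal, and all lay well above rest 1, the highest of the other run (log2 fold change 1.40 ± 0.19 SE, adjusted p = 0.00433). Bmp2 passed under every one of 18 alternative settings, with adjusted p no higher than 0.0210. Tnfrsf11b, which encodes osteoprotegerin, the decoy receptor that holds back osteoclast formation, had 56.2, 74.8 and 71.3 CPM against 145, 139 and 195 CPM (1.26 ± 0.18, adjusted p = 0.00498). Tnfsf11, which encodes the RANKL that osteoprotegerin binds, had 77.8, 81.1 and 58.9 CPM against 73.1, 61.5 and 49.2 CPM, with overlapping groups (adjusted p = 0.866).

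Myc, Rgcc, Ndrg1, Chad and Hk2 were also among the 37 higher osteoblast genes. Myc, the growth-promoting transcription factor, had 164, 163 and 129 CPM in suffixes 1 to 3 and 301, 445 and 313 CPM in suffixes 10 to 12 (log2 fold change 1.22 ± 0.17 SE, adjusted p = 0.00489). Rgcc, a regulator of the cell cycle, had 287, 233 and 124 CPM against 532, 629 and 620 CPM (1.47 ± 0.22, adjusted p = 0.00529). Ndrg1, a hypoxia-responsive gene, had 32.2, 39.5 and 34.2 CPM against 88.2, 75.7 and 76.8 CPM (1.23 ± 0.18, adjusted p = 0.00498). All 3 genes had non-overlapping groups. Chad, chondroadherin, an integrin-binding matrix protein, had 488, 422 and 632 CPM against 1285, 1059 and 1079 CPM (1.17 ± 0.16, adjusted p = 0.00433), and it did not pass with the highest doublet scores removed. Hk2 had 86.5, 84.2 and 75.1 CPM against 138, 177 and 126 CPM (0.85 ± 0.16, adjusted p = 0.0324), and passed in only 7 of 18 alternatives, where adjusted p reached 0.34. Of 21 hypoxia and glycolysis genes, Ndrg1 and Hk2 rose and 0 fell (0.569% of all genes tested passed), with a median of 0.06.

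Of 14 bone and mineral matrix genes tested in osteoblasts 0 passed, where 0.569% of all genes did, so that count is no result about the list. Their median was -0.00, and 0 of them had groups that did not overlap. Bglap had 8586, 7136 and 10789 CPM per osteoblast sum in suffixes 1 to 3 and 10644, 7461 and 7126 CPM in suffixes 10 to 12 (adjusted p = 0.98). Col1a1, the collagen of bone, had 22717, 15215 and 15037 CPM against 17637, 17215 and 18179 CPM (adjusted p = 0.993). Over all cells Bglap was lower and osteoblasts were fewer in suffixes 10 to 12, while its level within them overlapped between the runs. The part of the osteoblast share in the level over all cells was not tested. Among the 6 lower genes, Cthrc1, a secreted protein of remodelling matrix, had 925, 758 and 1008 CPM against 469, 457 and 482 CPM (-0.92 ± 0.14, adjusted p = 0.00529). Sfrp2, a secreted modulator of Wnt signals, had 104, 91.5 and 56.1 CPM against 16.1 to 31.5 CPM (-1.80 ± 0.29, adjusted p = 0.00932), and Col6a2, a chain of collagen VI, 765, 748 and 627 CPM against 489, 426 and 435 CPM (-0.65 ± 0.13, adjusted p = 0.0435). Suffixes 1 to 3 were above suffixes 10 to 12 in every library for these genes. RNA of other cell types also differed in the osteoblast sums. The 5 haemoglobin genes, led by Hbb-bs, summed to 311, 216 and 210 CPM against 322, 481 and 658 CPM, and Hbb-bs rose. The 10 muscle fibre genes, led by Acta1 and with Myh4 at 0, summed to 32.2, 26.5 and 21.4 CPM against 73.6, 49.2 and 71.1 CPM, and the cartilage collagen gene Col9a3 fell. Of 4 capillary and arterial endothelial genes tested in osteoblasts, Rgcc rose and 0 fell, with a median of 0.57. Rgcc is also a leading gene of the lining fibroblast cluster. Tnfrsf11b and Chad were also leading genes of a cluster left unnamed, led by Cytl1, Clu and Npy. That cluster held 105, 18 and 65 cells in suffixes 1 to 3 and 180, 71 and 94 in suffixes 10 to 12. The part of these RNAs and of this cluster in the osteoblast results was not tested. The osteoblast count was 18 without peak 1, 19 without resolving 1, 21 without peak 3 and 25 without resolving 3, and 7 when only libraries labelled peak and resolving were used.

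Tenocytes had 226 genes past the test among 8824 (2.56% of genes), 166 higher and 60 lower. Scaled by total UMIs alone, 104 were higher and 87 lower. Mmp2, the gelatinase that cleaves denatured and basement membrane collagens, had 1492, 1141 and 1407 CPM in suffixes 1 to 3 and 3026, 3697 and 3796 CPM in suffixes 10 to 12. The lowest library of suffixes 10 to 12 had over 2 times the highest of suffixes 1 to 3 (log2 fold change 1.35 ± 0.14 SE, adjusted p = 3.86e-04). Nmb, the peptide neuromedin B, had 10.3, 17.6 and 6.12 CPM against 54.3, 83.6 and 77.1 CPM (2.60 ± 0.28, adjusted p = 3.86e-04). Mmp2 and Nmb passed in all 19 alternatives. Lrrc15, a membrane protein of matrix-producing fibroblasts, had 9.33, 0.979 and 7.34 CPM against 41.1, 92.5 and 87.6 CPM (3.42 ± 0.44, adjusted p = 0.00103), from 19, 1 and 6 UMIs against 109, 186 and 125. C1qtnf3, a secreted C1q-related protein, had 43.2, 13.7 and 24.5 CPM against 162, 207 and 182 CPM (2.60 ± 0.25, adjusted p = 3.86e-04). A small tenocyte cluster led by C1qtnf3 held 1, 1 and 1 cells in suffixes 1 to 3 and 18, 14 and 6 cells in suffixes 10 to 12. Without it, 180 genes passed in a fit added once the data had been seen, and Lrrc15 and C1qtnf3 still passed with log2 fold changes of 2.64 and 1.83.

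Of 15 collagen processing genes tested in tenocytes, P4ha3, P4ha2, Plod2 and Loxl2 rose and 0 fell (2.56% of all genes tested passed), while the median was 0.07. Summed over the list, with Pcolce the most abundant, the level was 5424, 6189 and 5746 CPM in suffixes 1 to 3. In suffixes 10 to 12 it was 4557, 5103 and 4684 CPM. Sums are scaled by total UMIs alone, unlike the levels of single genes, so their directions are not compared. P4ha2, a prolyl hydroxylase that stabilises the collagen helix, had 29.0, 23.5 and 24.5 CPM in suffixes 1 to 3 and 68.6, 71.6 and 56.1 CPM in suffixes 10 to 12 (log2 fold change 1.30 ± 0.17 SE, adjusted p = 0.00103). Plod2, a lysyl hydroxylase that prepares collagen for cross-linking, had 88.3, 76.4 and 89.3 CPM against 136, 162 and 167 CPM (0.84 ± 0.14, adjusted p = 0.00496). The groups were clearly apart for both. Lum, lumican, and Aspn, asporin, rose among 12 small leucine-rich proteoglycans (0.98 and 0.73, adjusted p = 0.0149 and 0.0264), and 0 fell. Col3a1 rose by 0.89 (adjusted p = 0.0389), with 2584, 2180 and 2308 CPM against 2788, 5350 and 5207 CPM, so peak 3 was only slightly above suffixes 1 to 3. Postn had 208, 453 and 217 CPM against 314, 620 and 891 CPM and did not pass (adjusted p = 0.149). Of 12 tendon and ligament genes 0 passed, with a median of -0.16. Scx, the tendon transcription factor scleraxis, had 43.7, 72.5 and 30.6 CPM against 35.0, 20.9 and 30.8 CPM (adjusted p = 0.162).

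Atf3, Sgk1 and Cxcl1 rose in tenocytes as well. Atf3, a stress-induced transcription factor, had 812, 513 and 532 CPM in suffixes 1 to 3 and 1349, 2234 and 1477 CPM in suffixes 10 to 12 (log2 fold change 1.41 ± 0.21 SE, adjusted p = 0.00245). Sgk1, a kinase induced by glucocorticoids, had 392, 304 and 318 CPM against 576, 860 and 728 CPM (1.06 ± 0.16, adjusted p = 0.00282). Cxcl1 had 950, 461 and 553 CPM against 1122, 2356 and 1406 CPM (1.28 ± 0.28, adjusted p = 0.0264). Resolving 3 was highest for these 3 genes, and the groups did not overlap. Of 7 CXC chemokines, Cxcl1 and Cxcl12 rose and Cxcl14, a chemokine of resting epithelium and stroma, fell from 1073, 1109 and 1139 CPM to 630, 522 and 379 CPM (-1.15 ± 0.16, adjusted p = 0.00156). Among all tenocyte genes tested, 2.56% passed. Hk2 had 144, 76.4 and 95.4 CPM against 199, 223 and 228 CPM (0.97 ± 0.18, adjusted p = 0.0125, passing in 15 of 19 alternatives).

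The Wnt antagonists Dkk2 and Wif1 were among the lower tenocyte genes. Dkk2 had 192, 101 and 175 CPM in suffixes 1 to 3 and 52.0, 50.7 and 58.9 CPM in suffixes 10 to 12 (log2 fold change -1.58 ± 0.20 SE, adjusted p = 0.00103). Wif1, which binds Wnt proteins outside the cell, had 592, 813 and 947 CPM against 439, 98.5 and 185 CPM (-1.72 ± 0.38, adjusted p = 0.0291). Peak 3 came nearest to suffixes 1 to 3 for Wif1, and Dkk2 was even across suffixes 10 to 12. The tenocyte cluster led by Ptx4 and Kera has Wif1 among its leading genes. It held 74, 86 and 41 of the 335, 175 and 131 tenocytes in suffixes 1 to 3. In suffixes 10 to 12 it held 141, 46 and 51 of 453, 324 and 229. The part of this cluster in the Wif1 difference was not tested. Of 15 Notch and Wnt genes, Rspo1 and Dkk3 rose and Wif1 and Dkk2 fell (2.56% of all genes tested passed), with a median of -0.49. Hpgd, which breaks down prostaglandins, had 41.2, 162 and 67.3 CPM against 23.4, 14.9 and 7.71 CPM (-2.43 ± 0.46, adjusted p = 0.0123). Igfbp5, a binding protein of insulin-like growth factors, had 1705, 1743 and 2026 CPM against 975, 1152 and 727 CPM (-0.97 ± 0.16, adjusted p = 0.00518). Dkk2 was among the lower genes counted in fibroblasts, whose genes chose the runs, so that count lends no support here. Whether the change differs between tenocytes and fibroblasts was not tested. RNA of other cell types also differed in the tenocyte sums. The 7 osteoblast markers, led by Ibsp, summed to 669, 588 and 630 CPM against 412, 471 and 264 CPM, with none at 0. The 5 haemoglobin genes, led by Hbb-bs, summed to 313, 199 and 211 CPM against 342, 478 and 584 CPM, and Hba-a1 and Hbb-bs rose. Of the chondrocyte markers, Sox9 rose and Col2a1 and Col9a3 fell, and their sums overlapped, at 203, 113 and 105 CPM against 126, 113 and 86.2 CPM. The fibroblast markers Lum and Pdgfra and the sublining fibroblast marker Pi16 rose, while the 7 fibroblast markers, led by Dcn, summed to 50472, 59537 and 53971 CPM against 54160, 48196 and 53508 CPM, with overlapping groups. Their part in the tenocyte results was not tested. The tenocyte count was 93 without resolving 1 and 102 without resolved 3, and 8 with coarser clusters, where Mmp2 and Nmb still passed and Lrrc15 and C1qtnf3 did not. The largest tenocyte cluster, led by Col8a1, Egfl6 and Mfap4, held 260, 88 and 89 cells against 294, 264 and 172. It passed 4 tenocyte and 3 fibroblast markers, with no tenocyte marker among its leading genes. With coarser clusters, one led by Nppc, Col8a1 and Egfl6 was named fibroblast, and the tenocyte cluster was led by Clu, Angptl7 and Wif1. The class therefore does not hold the same cells in both.

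**Figure D3:**
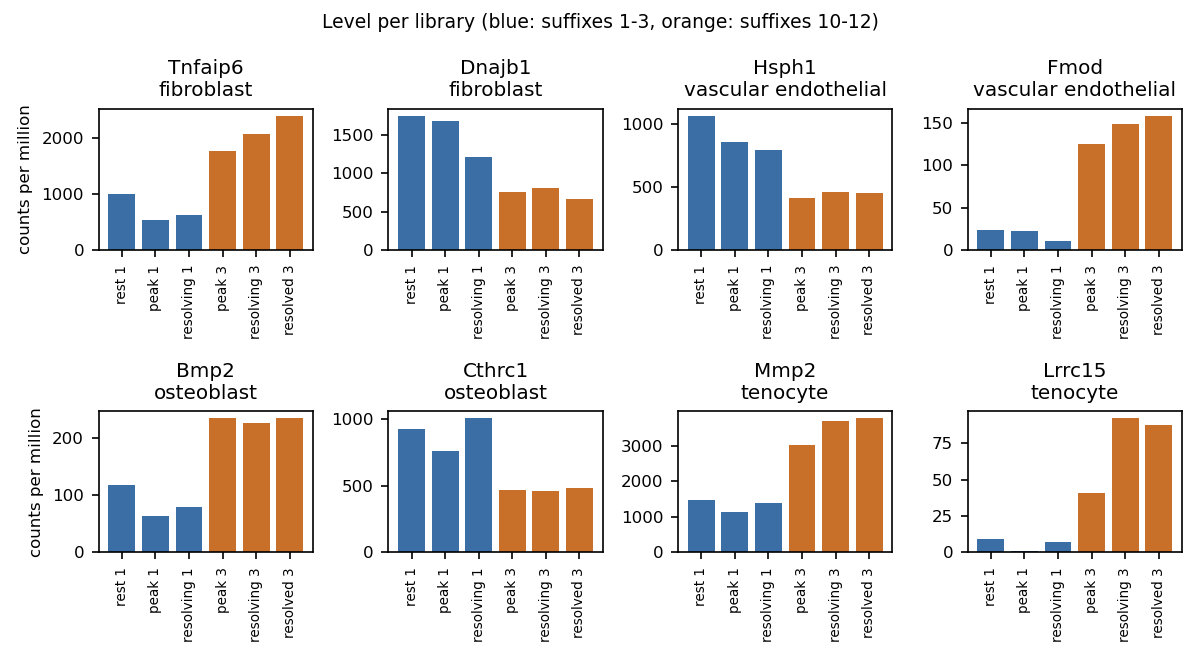
Level of 8 genes (CPM, vertical axes from 0) in the UMIs summed over 1 cell class in each library, blue for suffixes 1 to 3 and orange for 10 to 12. Mmp2 in tenocytes lies at 1141 to 1492 CPM in suffixes 1 to 3 and at 3026 to 3796 CPM in suffixes 10 to 12.

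Perivascular cells had 0 of 2113 genes past the edgeR test (0.0% of genes), with 195 at an unadjusted p under 0.05 and 2 called by DESeq2. Their sums came from 50, 39 and 25 cells in suffixes 1 to 3 and 76, 25 and 28 in suffixes 10 to 12. Ccl11, the eosinophil attractant eotaxin, had 369, 111 and 385 CPM against 1136, 1672 and 2536 CPM (log2 fold change 2.64 ± 0.42 SE, adjusted p = 0.108). Its groups were wide apart, and without a pass in the test no change is claimed. Nrarp, a feedback inhibitor of Notch signalling, had 101, 140 and 96.3 CPM against 43.2, 9.39 and 42.3 CPM (adjusted p = 0.307). Acta2, the smooth muscle actin, had 10571, 12984 and 12784 CPM against 11902, 7381 and 9198 CPM, with overlapping groups (adjusted p = 0.533). Of 12 heat shock genes, 5 had every library of suffixes 10 to 12 below those of suffixes 1 to 3 (6.11% of all genes tested did), with a median of -0.25. The count was 3 without rest 1 and 1 without peak 3.

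The difference between the runs was itself compared between vascular endothelial cells and osteoblasts. Of 8588 genes, 44 had a difference between runs that differed between these classes (edgeR, adjusted p under 0.05), 13 more positive in endothelial cells and 31 more positive in osteoblasts. The log2 fold change in endothelial cells minus that in osteoblasts was -2.16 for Bmp2 (adjusted p = 0.0134), -1.88 for Myc (adjusted p = 0.00323) and 3.04 for Fmod (adjusted p = 2.18e-05). In osteoblasts Fmod had 1487, 1311 and 1299 CPM in suffixes 1 to 3 and 1426, 1114 and 1077 CPM in suffixes 10 to 12, with overlapping groups. The count was 23 without rest 1, 21 without peak 1, 29 without resolving 1, 23 without resolving 3 and 71 without resolved 3.

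The lead genes were placed on GRCm38, the build that mm10 names. Tnfaip6 lies on chromosome 2 at 52038009 to 52056686 and Bmp2 on the same chromosome at 133552159 to 133562885. Dnajb1 and Mmp2 lie on chromosome 8 at 83608193 to 83612653 and at 92827291 to 92853420. Hsph1 lies on chromosome 5 at 149614287 to 149636376 and Fmod on chromosome 1 at 134037254 to 134048277. Cthrc1 lies on chromosome 15 at 39076932 to 39087121 and Lrrc15 on chromosome 16 at 30269302 to 30283256. Ddx3y, a gene of the Y chromosome, had 86.3, 72.4 and 76.4 CPM over all cells of suffixes 1 to 3 and 81.0, 94.6 and 84.2 CPM of suffixes 10 to 12, and Xist had at most 2 UMIs in a library, as in male mice.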

How the data were processed

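Each library's table held UMI counts per gene and cell that the authors deposited, made with Cell Ranger on mm10 from 3' libraries of CD45-negative joint cells. The equal median depth of the deposited cells is not described in the methods. Cells with more than 500 and fewer than 5000 detected genes were kept from 12 libraries (20213 of 21042), and the 27998 genes were used as deposited. Library pairs were compared by barcode sequence with the suffix removed, and 0 of 66 pairs shared any.

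Cells of all 12 libraries were clustered with scanpy 1.11.5 (Python 3.11.15, leidenalg 0.10.2, igraph 0.11.9, numpy 2.4.6, scipy 1.17.1, pandas 2.3.3): counts were scaled to 10000 per cell and log transformed, and 2000 variable genes, 30 principal components, 20 neighbours and Leiden resolution 1 gave 26 clusters. The variable genes left out Hk2, 9 genes that the study's results name as raised at the peak label, chemokines and cytokines. A class was given to a cluster if 4 or more of that class's markers each reached 20% of the cells and a log2 fold change of 1 or more. A cluster without such a class was called fibroblast when at least 5 of 7 fibroblast markers were each in at least 30% of cells. After seeing the data, a fibroblast cluster with at least 2 leading genes from cartilage, bone or adipocyte lists, and more than from its own markers, was left unnamed. That applied to a cluster of 839 cells led by Cytl1, Clu and Npy and to one of 30 led by Cfd and Adipoq. The 186 cells led by Ccl21a and Lyve1 passed 6 vascular and 5 lymphatic endothelial markers. The 62 led by erythroid genes passed 6 erythroid and 6 proliferating markers. Both clusters were left unnamed too, since markers of another class passed in nearly equal number. Unnamed cells were 5.56% and 7.52% of the runs on average (exact permutation p = 0.2).

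UMIs were summed per library and class, with at least 10 cells a sum, and tested with edgeR 4.0.16 (R 4.3.3, limma 3.58.1) by TMM factors, filterByExpr and a quasi-likelihood F test, two-sided, with Benjamini-Hochberg adjustment over all genes tested. Calls needed an adjusted p under 0.05 together with an absolute log2 fold change beyond 0.5. Directions are suffixes 10 to 12 over 1 to 3. In the tested classes, SE is the size of the log2 fold change divided by the square root of F. CPM of single genes use TMM factors within a class and total UMIs over all cells. Sums over a gene list use total UMIs alone, also within a class. Fibroblasts had no test. Shares were compared by two-sided exact permutation over libraries. All p-values are over libraries, each a pool of 3 animals. The class by run coefficient was fitted with library as a block. Intervals are Wilson at 95%, and a share of 0 is bounded by 3 counts.

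Named genes were Hk2, the same 9 genes from the study's results, the called genes (in fibroblasts, those counted apart) with the largest changes in each direction (8 in fibroblasts, 5 in endothelial cells and osteoblasts, 3 in other classes) with non-overlapping groups and a mean of at least 50 CPM in the higher run, and up to 4 most abundant and 4 most changed members of each of 37 gene lists. Positions came from GENCODE M21 (GRCm38), where 400 of 400 names matched. The members and lists were chosen with earlier results of these data known.

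Alternatives were upper UMI limits, at most 10% mitochondrial UMIs, doublet removal, Leiden resolution 0.5, cells thinned to 2000 UMIs, RLE factors, no filter on low counts, DESeq2 1.42.0, all 12 libraries with run means or with run and stage label, libraries labelled peak and resolving only, and each library left out in turn. Scrublet called 56 doublets (0.277% of cells), so the top-scoring 6% of each library was left out instead. Total UMIs without TMM factors, the capillary-led cluster alone and tenocytes without the C1qtnf3-led cluster were chosen after seeing the data. The edgeR test was also run on simulated data in endothelial cells and osteoblasts, and no result given here rests on that run.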

Additional observations from a re-analysis of the deposited data

Results flagged for a closer look

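In the named genes below, the difference between the runs was not the same in vascular endothelial cells and osteoblasts, by the edgeR test of the class by run coefficient (adjusted p from 2.18e-05 to 0.0459). Values are the log2 fold change of suffixes 10 to 12 over 1 to 3 in endothelial cells minus that in osteoblasts. The values were negative for Bmp2 at -2.16, Myc at -1.88, Ndrg1 at -1.37 and Rgcc at -1.15. They were also negative for Cxcl2 at -1.85, Tnfaip2 at -1.63, Nfkbia at -1.12, Bhlhe40 at -1.01, Nfkbiz at -0.962, Errfi1 at -0.878 and Ier3 at -0.866. Cytl1 differed by -3.52, Marcksl1 by -1.55, the aggrecan-cleaving protease gene Adamts4 by -1.47, Fbln5 by -1.30 and Timp3 by -0.808. Positive values were those of Fmod at 3.04, Angptl7 at 2.78, Thbs4 at 2.52, Anxa8 at 2.04, Mmp14 at 1.33, Dcn at 1.14 and Gpx3 at 0.945. With doublets removed, the endothelial log2 fold change itself was -0.16 for Gpx3 (main 1.02), 0.42 for Dcn (main 1.27) and 1.62 for Angptl7 (main 3.23), and the cause was not tested. The markers of tenocytes and fibroblasts that moved with the run in endothelial cells are given with the endothelial results, and their part in these differences was not tested. Single libraries could not be screened for outlying values, since each run has only 3.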

How the results depend on the processing

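No paired analysis was possible because the compared runs share no replicate number. Alternatives for genes within chondrocytes were not run, as too few of these cells in suffixes 10 to 12 left no main test. With no filter on low counts, the fibroblast count was 1279, and 173 endothelial, 176 osteoblast, 581 tenocyte and 37 perivascular genes passed. Using only libraries labelled peak and resolving, the counts were 1396, 8, 7, 102 and 5 in the same order, 7 classes did not overlap in share and the share difference was -3.84 points in osteoblasts and 3.14 in endothelial cells, with fewer libraries. All 12 libraries with run means gave 9 endothelial and 16 osteoblast genes. Adding the stage label gave 0 endothelial, 41 osteoblast, 189 tenocyte and 3 perivascular genes. DESeq2 called 32 endothelial and 2 perivascular genes. Thinned cells gave 92 tenocyte and 2 perivascular genes, coarser clusters 8 tenocyte genes, and doublet removal 26 osteoblast genes. Of the alternatives chosen after seeing the data, the capillary-led cluster gave 31 endothelial genes and total UMIs 25 osteoblast genes. Gpx3 in endothelial cells turned to -0.16 with doublets removed and Lcn2 in tenocytes to 0.29 with coarser clusters. The cause was not tested for these changes.

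The share differences of chondrocytes, osteoblasts and endothelial cells kept their direction in every alternative run, and so did Bmp2 in osteoblasts, Mmp2 and Nmb in tenocytes, with their calls. Leaving out 1 library gave 908 to 1308 fibroblast, 4 to 23 endothelial, 18 to 37 osteoblast, 93 to 295 tenocyte and 0 to 3 perivascular genes, 21 to 71 genes that differed between classes, and 3 to 7 classes apart in share. Share differences ran from 3.47 to 7.62 points in endothelial cells, from -7.90 to -4.67 in osteoblasts and from -5.36 to -4.55 in chondrocytes. TMM moved the median log2 fold change of tenocytes to -0.01 from -0.12 with total UMIs, and of fibroblasts from -0.08. With total UMIs the split of higher and lower genes was 104 and 87 in tenocytes (main 166 and 60), 361 and 444 in fibroblasts (422 and 335) and 20 and 5 in osteoblasts (37 and 6). Of the single gene values, 293 in tenocytes, 122 in endothelial cells and 119 in osteoblasts lost their call under an alternative, and 106, 80 and 62 gained one. Too few chondrocytes were present in suffixes 10 to 12 for a test, and perivascular sums held 25 cells in resolving 1 and in resolving 3.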
